A study of Homo sapiens with 6 samples.

Results

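The genes described here are the solute carriers (SLC) and ATP-binding cassette (ABC) genes among those the authors listed as changed when NCI-H292 cells were treated with mitoxantrone. They were taken by symbol: SLC followed by a digit, SLCO, or ABC followed by a letter from A to G and a digit. Of 1305 listed genes 23 matched, and the cystine importer SLC7A11 was left out, so 22 remained. Of these, 21 encode proteins. The remaining entry, SLC26A4-AS1, is an antisense RNA that the symbol rule took in. It has a family of its own but is counted among the 22 in all totals, medians and sums below.

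NCI-H292 is an established human lung cancer line. The cells were exposed for 48 hours either to 50 nM mitoxantrone or to the solvent DMSO at a 1 in 1000 dilution, and total RNA was sequenced from 3 libraries of each treatment. Mitoxantrone, a topoisomerase II poison, breaks DNA and kills dividing cells, and the series title places the comparison in work on senescence in lung cancer. Every gene in the deposited table had already been selected by the authors on this same comparison. A count of changed members therefore follows in large part from that selection, and unlisted genes were not analysed here. The p-values of single members are likewise not independent of it. The labels do not state that replicates were grown as separate cultures. The p-values then measure only how these samples vary, and that variation may be technical.

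Solute carriers are membrane proteins that move nutrients, ions, metabolites and drugs along or against their gradients, often by coupling them to sodium or protons. ABC transporters use the energy of ATP to pump lipids, conjugates and drugs, mostly out of the cell. In epithelial cells both classes set which nutrients enter and which foreign compounds are removed. Mitoxantrone itself is a known cargo of several ABC exporters, ABCG2 among them.

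All 3 ABC genes in the table were higher with mitoxantrone. ABCA13 had the largest fitted change of any member. Among the ABC genes, ABCA1 and the multidrug exporter gene ABCC2 came next, both with smaller changes than several carriers. Among the carriers, the nucleoside importer gene SLC28A3 rose most, the 4 carriers of inorganic ions rose together, and the neutral amino acid carrier gene SLC6A15, the cation exporter gene SLC47A2 and the choline carrier gene SLC44A1 were among those that fell. By edgeR's quasi-likelihood test (p-values adjusted after Benjamini and Hochberg), 15 of the 22 members (68.2%) passed an adjusted p of 0.05 as higher, beside 56.7% of all listed genes. As lower, 5 members (22.7%) passed, beside 35.3% of all listed genes. The 2 that did not pass, SLC10A6 and SLC26A4-AS1, were thinly covered and had fitted changes above 0. The median log2 fold change was 1.47 over the members and 1.26 over all listed genes. In absolute size the medians were 1.57 and 1.64.

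The mitoxantrone and DMSO libraries did not overlap for any of the 22 members, beside 98.6% of all listed genes. Among the scalings, the number of rises fell only where factors were estimated from the listed genes. Scaled by the total assigned reads of each library, 15 members passed as higher and 5 as lower. The DESeq2 Wald test with the authors' size factors also gave 15 and 5. Size factors estimated from the listed genes alone centre a set that the authors had selected as changed and mostly higher. They moved the median of all listed genes by -0.69 (TMM) and -0.99 (DESeq2) on the log2 scale, and the calls over all listed genes from 740 higher and 461 lower to 366 and 512 or 219 and 512. Under these factors 9 and 3 members passed as higher and 5 and 5 as lower. No member changed sign under either.

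**Figure D1:**
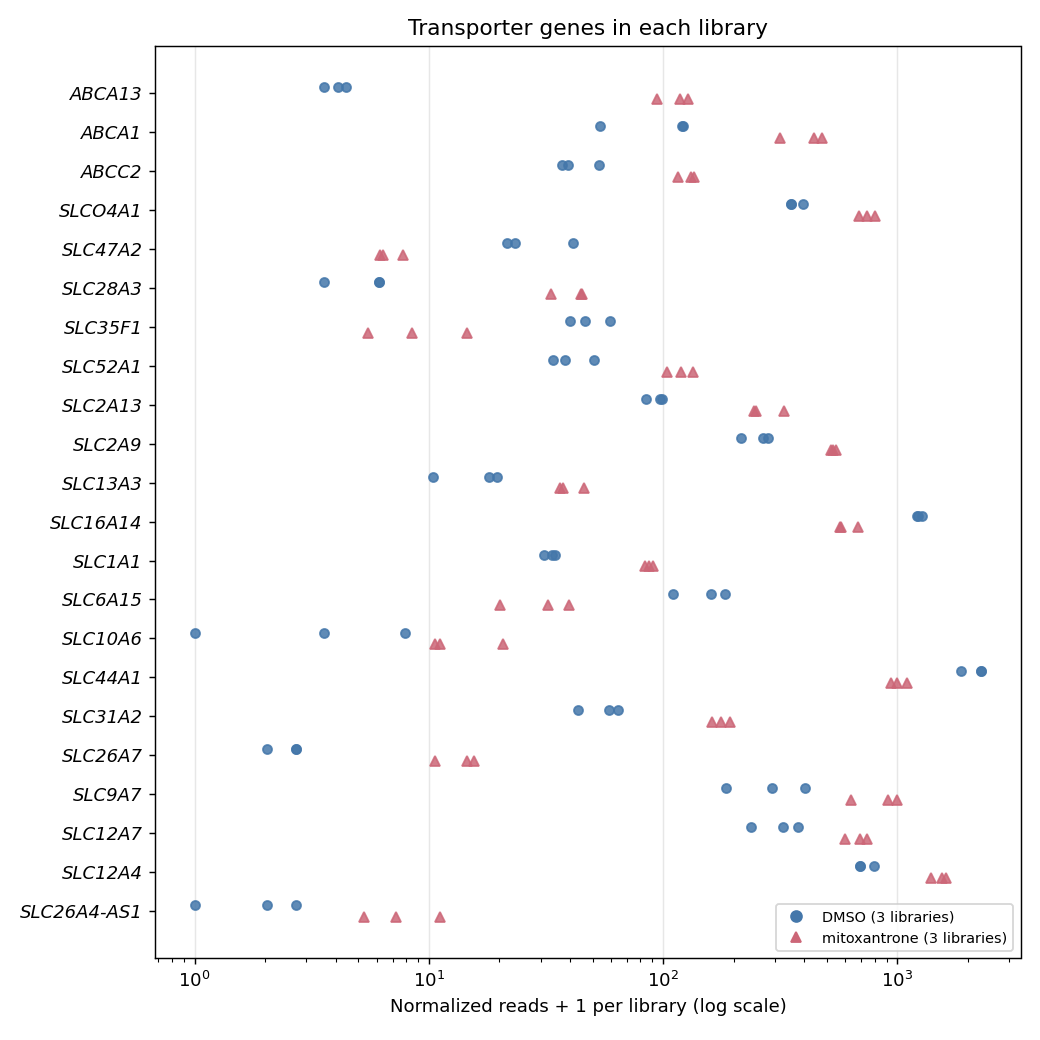
Normalized reads plus 1 (log scale, horizontal axis) of the 22 members in each library, with circles for the 3 DMSO libraries and triangles for the 3 mitoxantrone libraries. Circles and triangles do not overlap in any row, and ABCA13 has the widest gap, from 2.57 to 3.44 normalized reads with DMSO to 92.7 to 127 with mitoxantrone.

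The libraries held 14762544 to 17817780 assigned reads each. Reads of listed genes made up 3.97% to 4.04% of the DMSO libraries and 6.08% to 6.2% of the mitoxantrone libraries. DMSO replicate 2 was the lowest DMSO library for 13 of the 22 members, beside 36.0% of all listed genes, and mitoxantrone replicate 1 was the lowest of its group for 13 members, beside 38.0%. The part of these libraries in single results is given by leaving each out, below. Of 6 epithelial markers, KRT8 and KRT18 were listed and both rose, 2.8-fold and 2.29-fold. Of 9 markers of leukocytes, endothelium and fibroblasts, the collagen gene COL1A1 was listed, which fell from 344 ± 49.5 to 139 ± 19.5 normalized reads (SD, n = 3 each). Whether other cells had a part in the results below was not tested. In bulk RNA, a change in the share of cells that make a transcript and a change in the amount per cell cannot be told apart.

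The promoters of the 3 ABC genes are shown because these genes moved in the same direction. The sequences are the 250 bases before the annotated start in RefSeq (GRCh38.p14), read on the gene's strand. ABCA1 lies on the minus strand, with its stretch at chr9:104928156-104928405. ABCA13 (chr7:48171208-48171457) and ABCC2 (chr10:99782390-99782639) lie on the plus strand. Capitals mark matches to any of 7 short motifs on either strand.
ABCA1: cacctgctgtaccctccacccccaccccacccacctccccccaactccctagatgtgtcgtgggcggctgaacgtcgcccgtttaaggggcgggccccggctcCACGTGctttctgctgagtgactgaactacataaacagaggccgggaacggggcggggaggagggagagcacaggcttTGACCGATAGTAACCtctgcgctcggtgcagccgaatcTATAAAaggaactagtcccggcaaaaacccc
ABCA13: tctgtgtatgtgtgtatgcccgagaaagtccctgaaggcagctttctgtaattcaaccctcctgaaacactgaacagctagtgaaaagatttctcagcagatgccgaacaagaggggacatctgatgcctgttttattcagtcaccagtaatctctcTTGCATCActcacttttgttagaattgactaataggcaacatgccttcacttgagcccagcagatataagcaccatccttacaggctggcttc
ABCC2: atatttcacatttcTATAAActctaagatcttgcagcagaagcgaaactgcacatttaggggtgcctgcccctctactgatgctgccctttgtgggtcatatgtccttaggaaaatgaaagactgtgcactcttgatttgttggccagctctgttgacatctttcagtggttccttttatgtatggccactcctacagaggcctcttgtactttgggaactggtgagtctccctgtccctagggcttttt

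The ABCA1 stretch held an E-box (CACGTG) starting 147 bases before the start, a direct repeat of a nuclear receptor site 69 bases before it (TNACCNNNNNTNACC, the arrangement that liver X receptors bind, called DR4), and a TATA box (TATAAA) 31 bases before it. The E-box was in 6.49% of 27305 RefSeq stretches of the same length, the DR4 arrangement in 0.553% and the letters TATAAA in 11.1%, each at any position. Of 14 members with a stretch, 3 held the E-box (ABCA1, SLC12A7 and SLC2A13) and 1 the DR4 arrangement (ABCA1). TATAAA was in 3 of the 14: ABCA1, ABCC2 and SLC16A14, the last a gene that fell. ABCA13 held 1 match, 93 bases before its start, to the amino acid response element (TGATGNAA), which was in 3.19% of all stretches. ABCC2 held the letters TATAAA 236 bases before its start, far from the position of the ABCA1 match, and no other match. The remaining motifs searched were AP-1 (TGANTCA), which matched none of the 14 members found in the table and 6.6% of all stretches, the antioxidant response element (TGACNNNGC; 1 member, SLC10A6, and 11% of all) and the CCAAT box (CCAAT; SLC2A13 and SLC47A2, and 33% of all). The capitals within each printed stretch do not overlap one another. Factor binding was not measured in this study, and a match describes letters only.

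ABCA13, a very large member of the lipid-exporting ABCA group whose cargo is not well settled, had very few reads with DMSO and was present in every mitoxantrone library. It had 3.44, 3.09 and 2.57 normalized reads in the DMSO libraries (raw reads divided by the authors' size factors) and 92.7, 117 and 127 in the mitoxantrone libraries. All mitoxantrone libraries stood far above all DMSO libraries. Over each group this was 10 raw reads against 312. Divided by the summed size factors of each group, the ratio was 37.1-fold. Its 95% exact interval of 19.9 to 78.2 covers counting error only. The fitted log2 fold change was 5.15 with a standard error of 0.32 (edgeR quasi-likelihood adjusted p = 4.1e-08). The DESeq2 Wald test with the authors' size factors gave 5.21, while the authors' deposited value was 3.98. Deposited and fitted values may be unlike measures. They were 1.54 and 2.96 for the thinly covered SLC26A7, but 1.04 and 1.06 for the well covered SLC12A4. The deposited span of ABCA13 was chromosome 7, 48211055 to 48687092.

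ABCA1 exports cholesterol and phospholipid to lipid-poor apolipoprotein and is a textbook target of liver X receptors. Its normalized reads were 119, 52.5 and 120 with DMSO and 313, 474 and 440 with mitoxantrone. DMSO replicate 2 was less than either other DMSO library, and mitoxantrone replicate 1 was the lowest of its group. The fitted log2 fold change was 2.06 ± 0.25 (SE, 3 libraries per group; edgeR quasi-likelihood adjusted p = 2.2e-05), and 1.78 without DMSO replicate 2. The liver X receptor and sterol efflux list had 12 genes, of which 3 were listed. APOE, a cholesterol-carrying apolipoprotein, rose from 32.8 ± 12.1 to 161 ± 26.2 normalized reads (SD, n = 3 each). SREBF1, which encodes a regulator of lipid synthesis and is also a liver X receptor target, fell from 2425 ± 276 to 1181 ± 57.3 (SD, n = 3 each).

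ABCC2 pumps glutathione and glucuronide conjugates and drugs across the apical membrane. Reads after scaling were 52.4, 38.1 and 36 with DMSO and 115, 134 and 131 with mitoxantrone, so the groups were well apart. The rise was 3-fold, with a log2 fold change of 1.58 ± 0.21 (SE; edgeR quasi-likelihood adjusted p = 5.5e-05). Scaled by DESeq2 factors of the listed genes it was 0.59 and did not pass (edgeR quasi-likelihood adjusted p = 0.27). ABCC2 was the 1 listed gene of 15 transporters of drugs and major nutrients that were looked for by name. The other 14, among them the drug exporter genes ABCB1, ABCG2, ABCC1 and ABCC3, were not analysed here.

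The organic ion carriers moved in opposite directions. SLC47A2, a proton-coupled exporter of organic cations known mainly from kidney, had 22.3, 20.6 and 40.3 normalized reads with DMSO and 6.78, 5.21 and 5.37 with mitoxantrone. DMSO replicate 3 was the highest library, and without it the log2 fold change of -2.25 ± 0.43 (SE) became -1.88 (edgeR quasi-likelihood adjusted p = 0.02). SLCO4A1, an organic anion carrier that takes up thyroid hormones, was far more abundant, at 394, 349 and 349 with DMSO and 684, 804 and 740 with mitoxantrone. It was the member nearest the authors' fold threshold: their deposited log2 fold change was 1.00, and the next nearest were -1.01 for SLC16A14 and 1.04 for both SLC2A9 and SLC12A4. Under TMM and DESeq2 factors of the listed genes the fitted value of SLCO4A1 fell from 1.03 to 0.34 and 0.04, and neither passed.

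SLC28A3, a sodium-driven importer of purine and pyrimidine nucleosides and of nucleoside drugs, rose from 2.58, 5.15 and 5.14 normalized reads with DMSO to 44.1, 43.8 and 32.2 with mitoxantrone. The lowest mitoxantrone library stood well above the highest DMSO library. This was 14 raw reads against 111, and after scaling a ratio of 9.43 with a 95% exact interval of 5.39 to 17.8 for counting error. The fitted log2 fold change was 3.2 ± 0.39 (SE; edgeR quasi-likelihood adjusted p = 2.7e-05). SLC35F1 belongs to the nucleotide sugar family, though its own cargo is unsettled. It went the opposite way, from 58.4, 39.2 and 45.4 to 4.52, 13.5 and 7.51. The mitoxantrone libraries varied most for this gene among the members that fell (coefficient of variation 53.9%). None reached the DMSO range, beside 98.6% of all listed genes without overlap.

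**Figure D2:**
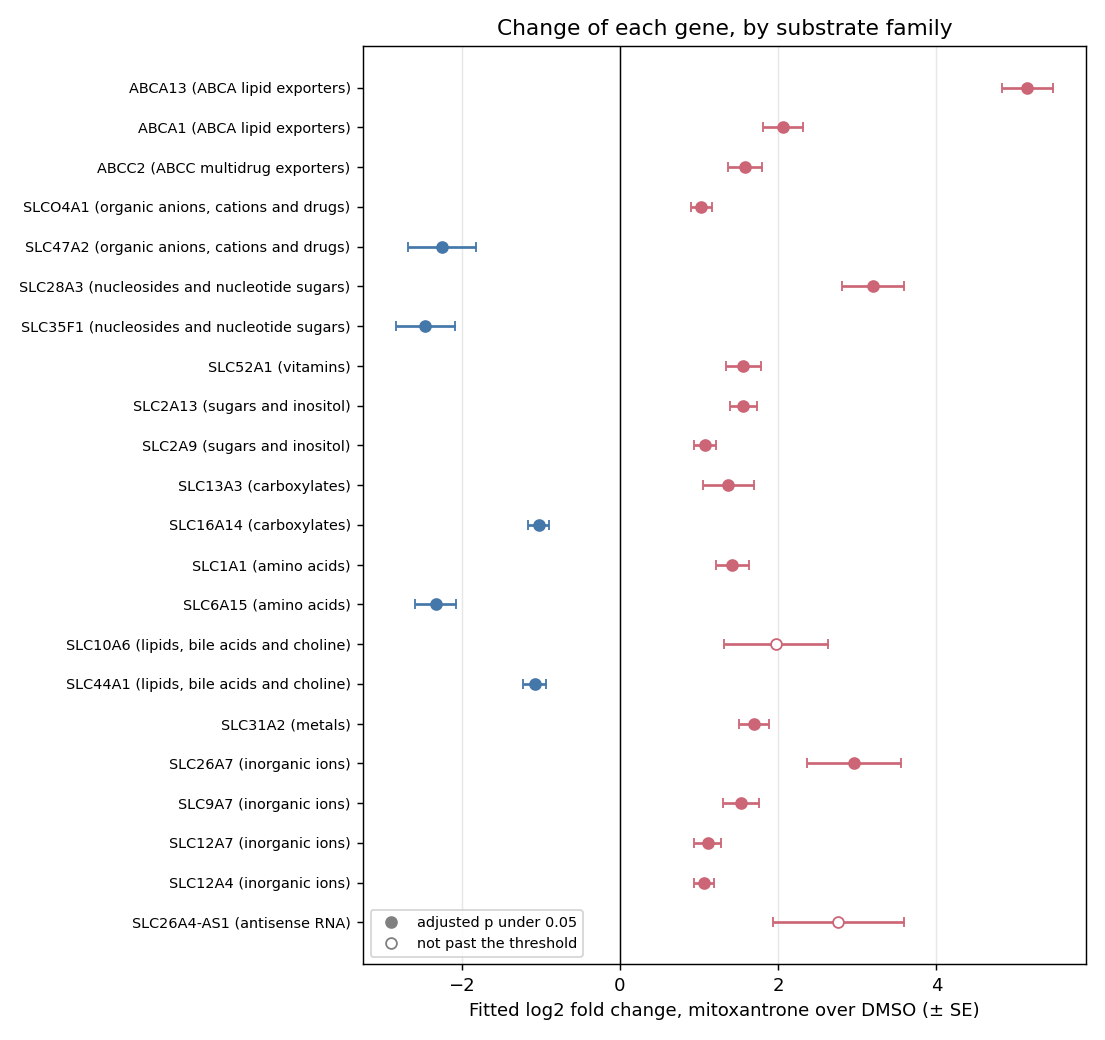
Fitted log2 fold change of each member, mitoxantrone over DMSO, with its standard error as the bar and the substrate family in brackets. Filled points passed an adjusted p of 0.05 and open points did not. The rises run from 1.03 for SLCO4A1 to 5.15 for ABCA13 and the falls from -1.03 for SLC16A14 to -2.46 for SLC35F1.

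Amino acid carriers also split. SLC6A15, which imports neutral amino acids such as leucine and proline with sodium, had 182, 109 and 159 normalized reads with DMSO and 19.2, 31.3 and 38.6 with mitoxantrone. The fall was 5.03-fold, with a log2 fold change of -2.33 ± 0.26 (SE; edgeR quasi-likelihood adjusted p = 1.3e-05), and -2.56 to -2.1 when each library was left out in turn. SLC1A1, a high-affinity importer of glutamate, aspartate and cysteine, rose from 33.5, 29.9 and 32.6 to 85.9, 89.6 and 82.6. These were among the tightest replicates of any member, with coefficients of variation of 5.88% and 4.05%. Its log2 fold change of 1.42 dropped to 0.73 with TMM factors over the listed genes (edgeR quasi-likelihood adjusted p = 0.078) and to 0.43 with DESeq2 factors (edgeR quasi-likelihood adjusted p = 1).

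Of 24 genes of the amino acid starvation response, the programme of the transcription factor ATF4, 5 were listed. CHAC1, which degrades glutathione, SESN2, a leucine-sensing inhibitor of growth signalling, and the stress gene NUPR1 rose 2.8-fold, 2.31-fold and 2.14-fold. PHGDH, the entry enzyme of serine synthesis, fell from 2287 ± 287 to 889 ± 84.3 normalized reads (SD, n = 3 each), and DDIT4, another inhibitor of growth signalling, fell 2.13-fold. Of these 5 listed genes 3 were called higher and 2 lower, beside 56.7% and 35.3% of all listed genes. With so few listed genes these counts describe only these 5.

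The sugar family was represented by members whose main cargo is not glucose. SLC2A13, a proton-coupled importer of myo-inositol, had 98, 83.5 and 96 normalized reads with DMSO and 249, 243 and 326 with mitoxantrone, a 2.94-fold rise. SLC2A9, a urate carrier, had 267, 214 and 278 against 518, 530 and 548, a 2.1-fold rise. In both, every mitoxantrone library exceeded every DMSO library, though the groups did not overlap for 98.6% of all listed genes. Scaled by total assigned reads both passed, at log2 fold changes of 1.49 for SLC2A13 and 1.0 for SLC2A9 (edgeR quasi-likelihood adjusted p = 1.1e-05 and 1.4e-04). Factors of the listed genes centre a selected set and lower every rise. With TMM factors SLC2A13 still passed, at 0.87 (edgeR quasi-likelihood adjusted p = 0.0031). SLC2A9 had a log2 fold change of 0.38 with TMM and 0.08 with DESeq2 factors of the listed genes (edgeR quasi-likelihood adjusted p = 0.28 and 1), and SLC2A13 had 0.56 with the latter (edgeR quasi-likelihood adjusted p = 0.11). Of 20 glycolysis genes, PFKFB4, a bifunctional regulator of glycolytic flux, was listed, and it rose 2.12-fold. The SLC52A1 gene, whose product imports riboflavin (vitamin B2), rose from 32.7, 37.1 and 49.7 to 103, 133 and 118, a log2 fold change of 1.56 ± 0.22 (SE). DESeq2 factors of the listed genes brought it to 0.57 and ended the call (edgeR quasi-likelihood adjusted p = 0.42).

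The carboxylate carriers differed in both level and direction. SLC16A14, a member of the monocarboxylate family with a less settled cargo, fell from 1278, 1217 and 1207 normalized reads to 677, 566 and 575. Its DMSO libraries varied by 3.1%, the least of any member in that group. SLC13A3, a sodium-coupled importer of dicarboxylates such as succinate and oxoglutarate, had 9.45, 18.5 and 17.1 with DMSO and 36.2, 44.8 and 35.4 with mitoxantrone. That was a log2 fold change of 1.37 ± 0.32 (SE; edgeR quasi-likelihood adjusted p = 0.012). This call was lost without DMSO replicate 1 (adjusted p = 0.078, edgeR) and without mitoxantrone replicate 2 (adjusted p = 0.075, edgeR). It was also lost with TMM and DESeq2 factors of the listed genes, at log2 fold changes of 0.69 and 0.38 (adjusted p = 0.74 and 1, edgeR).

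SLC44A1, which imports choline for membrane phospholipids, was the most heavily covered member, at 2263, 1867 and 2276 normalized reads with DMSO and 940, 999 and 1099 with mitoxantrone. It fell 2.11-fold, with a log2 fold change of -1.08 ± 0.14 (SE; edgeR quasi-likelihood adjusted p = 4.0e-05). SLC10A6, a sodium-coupled importer of sulfated steroids, was thin, at 6.87, 0 and 2.57 with DMSO and 10.2, 19.8 and 9.66 with mitoxantrone. Its 11 and 37 raw reads gave, after scaling, a ratio of 4 with a 95% exact counting interval of 2 to 8.7. Its log2 fold change was 1.97 (edgeR quasi-likelihood adjusted p = 0.13). Leaving out DMSO replicate 1, its highest DMSO library, brought that adjusted p (edgeR) to 0.047 and the log2 fold change to 3.14. The authors' deposited table gave it an adjusted p of 0.021.

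The 4 carriers of inorganic ions were all called higher, with log2 fold changes from 1.06 to 2.96, beside 56.7% of all listed genes called higher. SLC12A4, a potassium-chloride cotransporter that lowers cell volume, had 693, 688 and 795 normalized reads with DMSO and 1384, 1555 and 1604 with mitoxantrone. SLC12A7, a cotransporter of the same type, had 324, 237 and 374 against 598, 688 and 740. Their fitted folds were 2.09 and 2.16, close to the authors' threshold. SLC9A7, a sodium or potassium/proton exchanger of the trans-Golgi network, rose from 402, 184 and 290 to 631, 996 and 908, with wide spread among the DMSO libraries (coefficient of variation 37.2%). Without DMSO replicate 2 its log2 fold change went from 1.53 to 1.29. Under TMM and DESeq2 factors of the listed genes, 2 and 0 of these 4 passed as higher, while the calls over all listed genes went from 740 higher to 366 and 219.

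SLC26A7, an anion exchanger and chloride channel of acid-secreting epithelia, had very few reads with DMSO, at 1.72, 1.03 and 1.71 normalized reads, and had 13.6, 14.6 and 9.66 with mitoxantrone. This was 5 raw reads against 35, and after scaling a ratio of 8.33 with a 95% exact counting interval of 3.25 to 27.2. The edgeR quasi-likelihood adjusted p was 0.0032. SLC26A4-AS1 lies opposite the gene of another anion exchanger, SLC26A4, whose own row was not among the members. It had 1.72, 1.03 and 0 normalized reads with DMSO and 10.2, 6.25 and 4.29 with mitoxantrone, or 3 raw reads against 19. After scaling the ratio was 7.53 with an interval of 2.22 to 39.7, and the adjusted p was 0.068 (edgeR quasi-likelihood test). The fitted log2 fold change of 2.76 ran from 2.19 to 3.55 when each library was left out in turn, and was highest without DMSO replicate 1. Since the labels do not say whether libraries kept the strand, reads of SLC26A4 and of its antisense RNA cannot be told apart.

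SLC31A2, a copper-transport protein of endosomes and lysosomes, rose from 42.1, 57.7 and 63.4 normalized reads to 161, 192 and 176, a log2 fold change of 1.7 ± 0.19 (SE; edgeR quasi-likelihood adjusted p = 1.5e-05). Under DESeq2 factors of the listed genes this was 0.7 and did not pass (edgeR quasi-likelihood adjusted p = 0.065). Of 16 genes of metal handling 3 were listed, and all 3 fell, beside 35.3% of all listed genes called lower. With so few listed genes this count describes only these 3. The ferritin light chain gene FTL went from 8810 ± 2233 to 4026 ± 495 normalized reads (SD, n = 3 each), and the metallothionein gene MT1F from 86.8 ± 17.4 to 31.6 ± 3.31 (SD, n = 3 each). CP, the copper-carrying ferroxidase ceruloplasmin, had 7.15 ± 2.75 and 0.724 ± 0.629 (SD, n = 3 each) (edgeR quasi-likelihood adjusted p = 0.034).

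Other membrane transport genes in the table did not share a direction. Among the ATP-driven pumps 4 were listed: ATP6V0A4, a subunit of the proton pump, rose 4.37-fold and ATP2C2, a Golgi calcium and manganese pump, rose 2.08-fold. ATP6V1G2 and ATP8B3 had log2 fold changes of 1.68 and -1.45, with edgeR quasi-likelihood adjusted p-values of 0.058 and 0.056. AQP3, a water and glycerol channel, fell from 789 ± 126 to 192 ± 8.61 normalized reads (SD, n = 3 each). STRA6, a retinol importer, fell 3.51-fold and was the 1 listed gene of 18 that encode transport proteins of or near these superfamilies under other symbols.

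**Figure D3:**
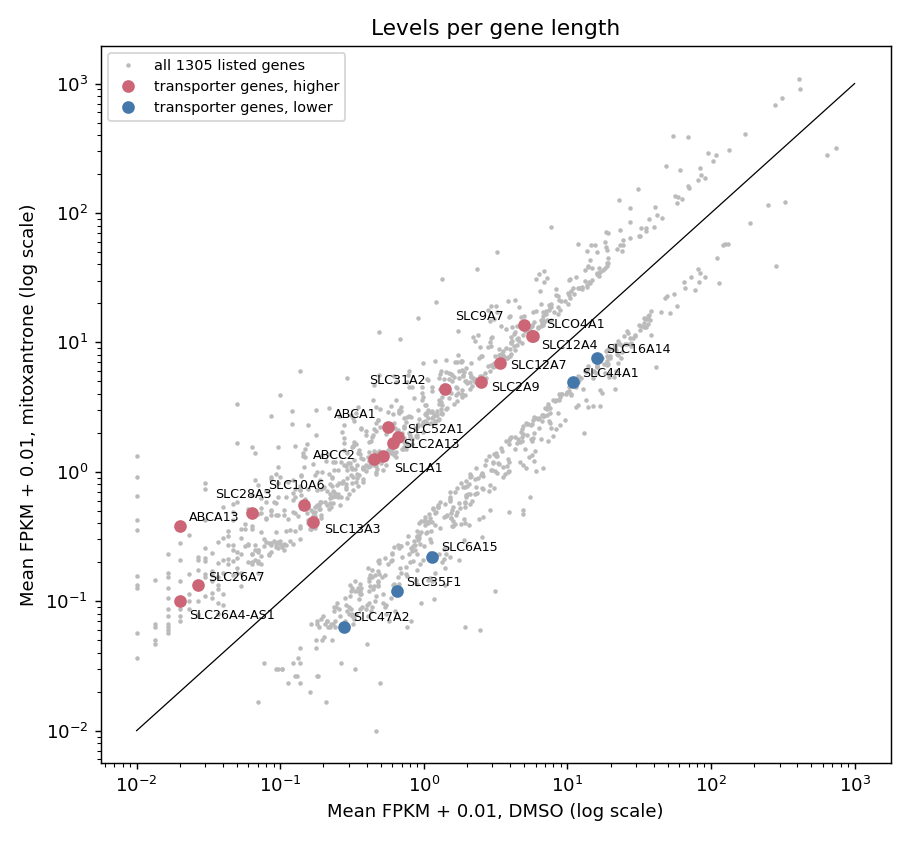
Mean FPKM plus 0.01 per group on log axes, DMSO on the horizontal and mitoxantrone on the vertical, with the 22 members labelled over all 1305 listed genes in grey and the line of equal level. The empty band along the line is the authors' fold threshold. ABCA13 moves from 0.01 to 0.37 FPKM, while SLC16A14 (16.1 to 7.52) and SLC44A1 (10.9 to 4.93) are the highest members on the DMSO axis only.

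Per gene length, in FPKM, the members with the highest level with DMSO were the lower ones SLC16A14, at 16.1 ± 0.982, and SLC44A1, at 10.9 ± 1.59 (SD, n = 3 each). SLCO4A1 (5.79 ± 0.585), SLC12A4 (5.64 ± 0.597) and SLC9A7 (4.95 ± 1.99) came next (SD, n = 3 each), and these neighbours did not differ beyond their spread. With mitoxantrone the order changed: SLC9A7 stood at 13.5 ± 3.23 FPKM, SLCO4A1 at 11.3 ± 1.04, SLC12A4 at 11.2 ± 1.1 and SLC16A14 at 7.52 ± 0.624 (SD, n = 3 each). The first 3 did not differ beyond their spread, and all lay above SLC16A14. At the low end, ABCA13 was at 0.37 ± 0.0656 FPKM with mitoxantrone (SD, n = 3), below ABCA1 at 2.22 ± 0.494 and ABCC2 at 1.25 ± 0.121, in spite of its larger change. SLC28A3 reached 0.473 ± 0.0723 FPKM (SD, n = 3).

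The sums below split the members by the sign of the change fitted on these same libraries. Their direction was therefore fixed in advance, and they describe levels only. Summed over the 17 members above 0 in fitted change, normalized reads were 2484, 2001 and 2514 with DMSO and 5049, 6085 and 6031 with mitoxantrone. Summed over the 5 that fell, they were 3804, 3253 and 3728 against 1648, 1615 and 1726. SLC44A1 and SLC12A4 together held 40.5% of the mean normalized reads of all members, so these sums largely describe a few abundant carriers.

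**Figure D4:**
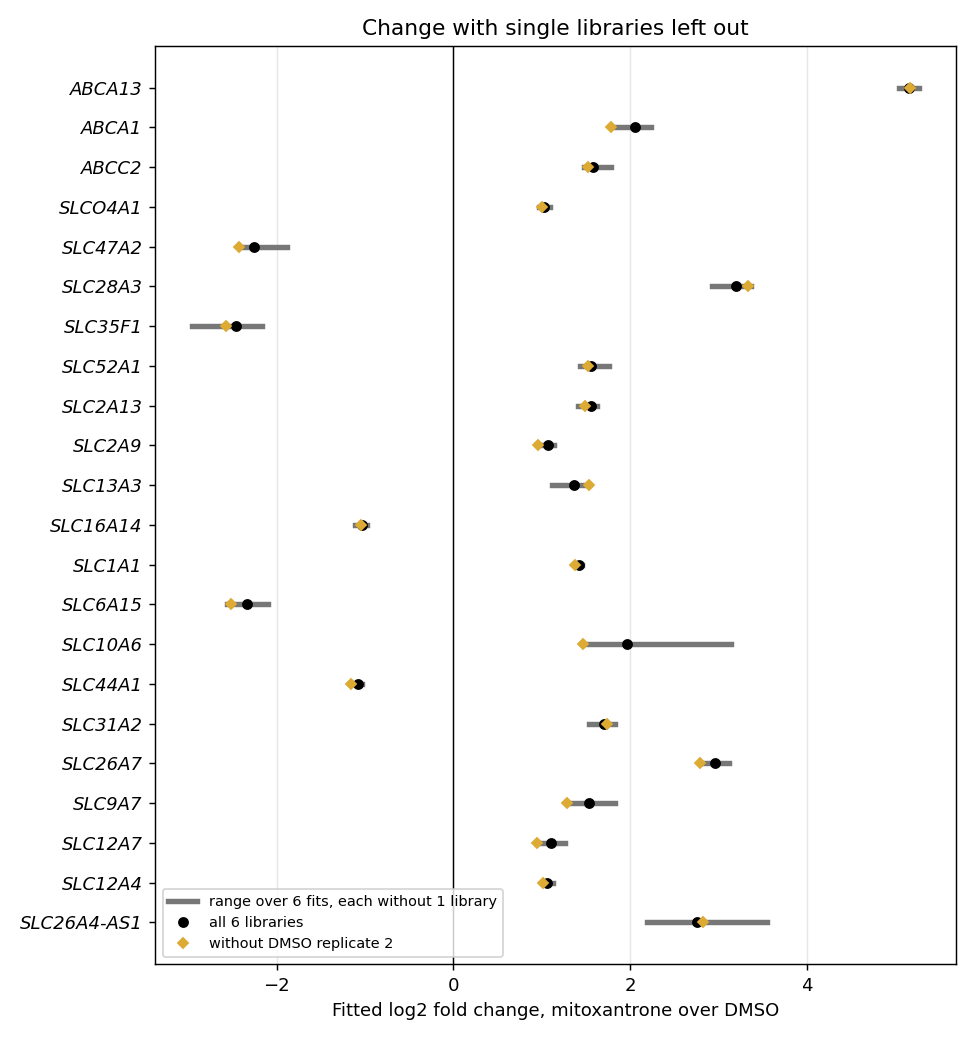
Fitted log2 fold change of each member with all 6 libraries (black points), without DMSO replicate 2 (yellow diamonds) and over the 6 fits that each leave out 1 library (grey bars). No bar crosses 0. The widest bar is that of SLC10A6, from 1.47 to 3.14.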

How the data were processed

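The authors' table of 1305 selected genes was the 1 file used. Per the file headers it holds raw read counts and FPKM values per library, a mean normalized signal over all libraries, and the authors' test result (log2 fold change, its error, a score, a p-value and an adjusted p-value). Per the submitters' processing notes, DESeq2, Cufflinks 2.2.1, HTSeq 0.6.1, HISAT2 2.0.1 and cutadapt 1.9.1 were used, in roles not stated there. The genome build is not given in the sources used here: start and end both differed from GENCODE release 29 (GRCh38) for 21 of 22 members, so table coordinates are printed as deposited and promoters come from RefSeq by symbol (14 of 22 matched, the first entry used where a gene had several). In GENCODE, exons of 5 members overlap a gene on the opposite strand (SLC26A4-AS1, SLC28A3, SLC2A13, SLC31A2, SLCO4A1) and those of SLC12A4, SLC13A3 and SLC26A7 a gene on the same strand, so their reads are less certain. No other listed gene overlapped a member.

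Size factors (0.884 to 1.167) were solved from counts and mean normalized counts (largest relative error 5.0e-10), and library totals from FPKM. The ratio of the authors' adjusted to raw p-values gave 18313 genes tested. All listed genes were fitted for treatment with the edgeR quasi-likelihood test (version 4.0.16 in R 4.3.3), without a filter, and adjusted by Benjamini-Hochberg over 18313 tests with ranks among the listed genes, which makes adjusted p-values larger. The spread was also estimated from the listed genes alone, which the authors had selected on these same libraries. Standard errors are the log2 fold change over the root of F. The test was checked on simulated data. Ratios of pooled reads were taken after dividing each group's reads by its summed size factors. Their exact 95% intervals (scipy 1.17.1) cover counting error only. Alternatives were DESeq2 1.42.0, other scalings, adjustment over the listed genes only, a filter of 10 reads in 3 libraries, a replicate block and leaving out each library.

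Members, gene lists and families were chosen with earlier results of these data known. The rule for named genes took all ABC genes, 15 transporters by name and the 3 members of each substrate family with the largest absolute change past adjusted p 0.05. The remaining members, SLC10A6, SLC26A4-AS1 and SLC12A4, were added so that all 22 are described. Motifs were chosen after the values were seen. All columns of per-library values were used or mapped (0 left over).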

Additional observations from a re-analysis of the deposited data

How the results depend on the processing

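No member changed sign under any of the 13 alternatives in which it was tested. The number of members passing as higher was 15, and fell to 9 with TMM and 3 with DESeq2 factors of the listed genes. The number over all listed genes fell from 740 to 366 and 219. These factors centre a selected list. Scaled by the total assigned reads of each library, 15 members and 723 of all listed genes passed as higher. With the replicate block 15 members were called higher and 5 lower, and over all listed genes 736 and 463. With p-values adjusted for the listed genes only, 17 members were called higher, SLC10A6 and SLC26A4-AS1 among them, and with the filter on low counts 14. With 1 library left out, 14 to 15 members were called higher and 5 lower. Deviations of same-numbered libraries correlated at -0.24, -0.14 and 0.04 over 1108 genes, and those of differently numbered libraries at -0.22 to 0.32. With 3 libraries per group these values cannot tell whether same-numbered libraries were prepared together. At these depths 3 members had a mean under 10 normalized reads (SLC10A6, SLC26A7, SLC26A4-AS1). With the filter on low counts these 3 were not tested.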
